A study of Schizosaccharomyces pombe with 4 samples.

Results

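Transcripts of 8 transcription factors that drive or restrain the middle and late genes of fission yeast meiosis were described across 4 arrays. The factors were mei4, fkh2, sep1, cuf2, atf21, atf31, rsv1 and rsv2. They were chosen by name from the platform's probe annotation and not by their values. All 8 were measured, each by 1 probe set, among 2899 genes with a single symbol. Their systematic names are SPBC32H8.11 (mei4), SPBC16G5.15c (fkh2), SPBC4C3.12 (sep1), SPCC584.02 (cuf2), SPBC2F12.09c (atf21), SPAC22F3.02 (atf31), SPBP4H10.09 (rsv1) and SPBC1105.14 (rsv2).

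The cells were h+/h- diploid Schizosaccharomyces pombe, sampled 1.5 h and 3 h after meiosis was induced by removing nitrogen. Both genotypes carried ade6-210/216, his5-303/+ and leu1-32/+. The deletion strain was in addition ura4-D18/ura4-D18 and pht1D::ura4+/pht1D::ura4+, so both gene copies of the histone variant H2A.Z were replaced by ura4+, and the strains also differ in ura4. Each of the 4 combinations of genotype and time was 1 array of purified poly(A) RNA, so no difference between 2 arrays has a replicate check.

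In fission yeast, meiotic genes are switched on in waves. Ste11 and Mei2 open the program, early genes serve premeiotic S phase and recombination, and the forkhead factor Mei4 then turns on the middle genes for the meiotic divisions and the forespore membrane, its own gene among them. In growing cells the RNA-binding protein Mmi1 marks mei4 mRNA for destruction. The forkhead proteins Fkh2 and Sep1 drive genes of mitosis and cytokinesis, and Fkh2 is also known to hold back Mei4-dependent genes before their time. Cuf2, a relative of copper-sensing factors, acts with Mei4 on middle genes, the bZIP factors Atf21 and Atf31 act on late genes, and the zinc finger factors Rsv1 and Rsv2 act on stress and spore genes.

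The values are log2 RMA values, in which 1 unit is a 2-fold difference. Where 2 levels of a genotype or 2 genotype differences of a gene are given, the first is that at 1.5 h and the second that at 3 h. The pht1 probe set read 12.70 at 1.5 h and 12.86 at 3 h with the gene present, and 7.37 and 7.36 without it. A dim level of 8.37, which is 1 unit above the higher reading of the deleted gene, was used to mark values close to that of an absent transcript. A floor at the 25th percentile of each array, 10.08 to 10.13, was used for counts. The spread of a difference between 2 arrays was 0.223 units, taken from the standard deviation of the difference of differences over 2268 genes above the floor, and it was 0.213 over the 499 genes below the floor on all 4 arrays. This spread holds any real change of the genotype difference with time. Of the 10 early meiotic genes listed, all measured, 3 read under the dim level in wild type at 1.5 h and 0 on each of the other 3 arrays, and their median level at 1.5 h and 3 h was 8.58 and 11.28 for wild type, against 10.07 and 11.65 for the deletion. The 6 genes of nitrogen starvation had median levels between 13.25 and 13.74 on the 4 arrays.

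Transcripts of mei4, cuf2 and atf21 read higher in the deletion at 3 h, by 1.12 units for mei4, by at least 1.19 for cuf2 and by at least 0.90 for atf21, where the bounds are taken from the dim level because both genes read under it in wild type. At 1.5 h mei4 was higher by at least 0.82 and cuf2 by at least 0.25, while atf21 was under the dim level in both genotypes and its difference is not settled. Smaller differences the same way at 3 h were found for rsv1, rsv2 and sep1, while fkh2 lay lower by less than the spread at both times. The gene atf31 read under the dim level on all 4 arrays. With cells sampled as a bulk culture, more cells that express a transcript and more transcript per cell cannot be told apart. Early meiotic genes also read higher in the deletion, 9 of 10 beyond the spread between arrays at 1.5 h (17.7% of all genes) and 8 of 10 at 3 h (14.2% of all genes), with medians of 1.35 and 0.32, and their part in the differences of the factors was not tested.

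**Figure D1:**
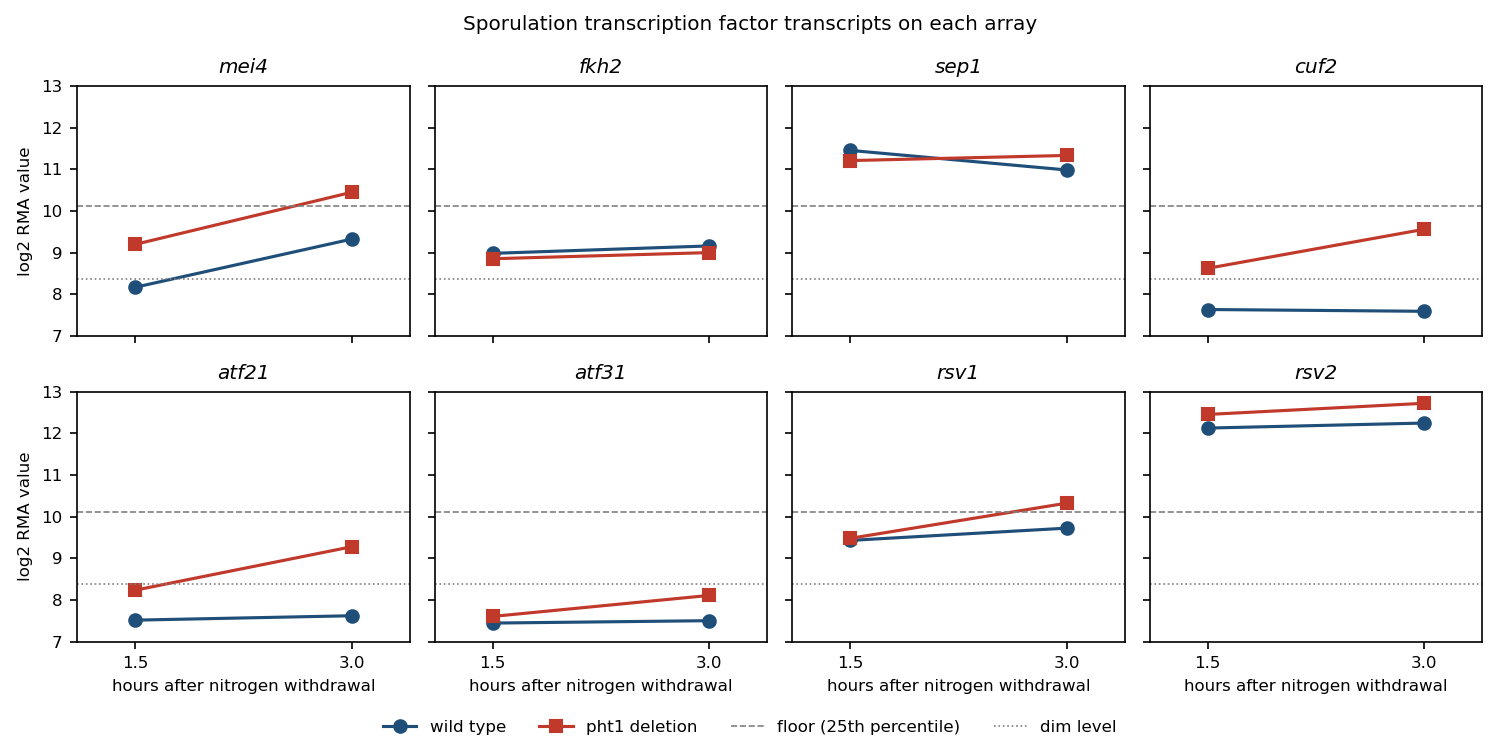
Log2 RMA value of each factor (vertical axis) against hours after nitrogen withdrawal (horizontal axis), with 1 array per point. Circles are wild type and squares the pht1 deletion. The dashed line is the floor at 10.11, the mean of the 4 arrays' floors, and the dotted line is the dim level at 8.37. The lines of mei4 run nearly parallel, while cuf2 and atf21 lie under the dim level in wild type and above it in the deletion at 3 h. At 1.5 h in the deletion cuf2 lies above it and atf21 below.

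The gene of the activator Mei4 read 8.16 in wild type at 1.5 h and 9.32 at 3 h, and 9.20 and 10.45 in the deletion. The lowest value was that of wild type at 1.5 h, under the dim level, and the highest that of the deletion at 3 h, the only 1 of the 4 above the floor. The deletion at 1.5 h lay within 0.13 units of wild type at 3 h, closer than the spread between arrays. The genotype difference was 1.03 at 1.5 h, and at least 0.82 when the wild-type value is raised to the dim level. It was 1.12 at 3 h, where both arrays read above that level, a 2.18-fold difference. The change from 1.5 h to 3 h was 1.16 in wild type, at least 0.95 from the dim level, and 1.25 in the deletion. The genotype difference thus moved by 0.094 units between the times, less than the 0.315 spread of such a difference of differences, or by 0.30 with the dim value raised.

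The gene of Fkh2 read 8.98 and 9.16 in wild type, against 8.85 and 9.00 in the deletion. All 4 values lay within 0.31 units of each other, above the dim level and below the floor. The deletion lay lower by 0.13 at 1.5 h and by 0.16 at 3 h, and each of these differences was within the spread between arrays. Both genotypes read higher at 3 h, by 0.18 and 0.15, also within the spread.

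The gene of Sep1 was above the floor on all 4 arrays, with 11.45 and 10.98 in wild type, with 11.21 and 11.33 in the deletion. The 2 genotypes were ordered oppositely at the 2 times. The deletion was at -0.24 against wild type at 1.5 h and at 0.35 at 3 h, each beyond the spread, the former only just. With the intensity trend of each pair of arrays removed, the 1.5 h difference was -0.21, within the spread. Wild type differed by -0.47 between the times and the deletion by 0.12. The difference of differences was 0.59, and no replicate exists to test it.

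The gene of Cuf2 read 7.63 and 7.59 in wild type, both under the dim level, and 8.62 and 9.56 in the deletion. Both deletion values were above both wild-type values, although all 4 lay below the floor. The measured genotype difference was 0.99 at 1.5 h and 1.97 at 3 h. With wild type raised to the dim level it was at least 0.25 and at least 1.19, so the 3 h difference exceeded 2-fold on either reckoning. The deletion changed by 0.94 between the times, with both of its arrays above the dim level, and wild type by -0.043.

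The gene of Atf21 read 7.51 and 7.62 in wild type, against 8.23 and 9.28 in the deletion. Only the deletion at 3 h lay above the dim level. The measured difference was 0.72 at 1.5 h, where both arrays were under that level and the size is not settled. It was 1.66 at 3 h, and at least 0.90 from the dim level, just under 2-fold. Its partner atf31 read 7.44 and 7.50 in wild type, with 7.60 and 8.11 in the deletion, under the dim level on all 4 arrays, so the differences of 0.16 and 0.61 cannot be told from readings of an absent transcript by this measure.

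The gene of Rsv1, a zinc finger factor needed for survival without glucose, read 9.43 and 9.72 in wild type, against 9.48 and 10.33 in the deletion. At 1.5 h the genotypes differed by 0.049, within the spread, and at 3 h by 0.60, with the deletion array above the floor. Between the times wild type differed by 0.29 and the deletion by 0.85. The gene of Rsv2, a factor for stress genes in spores, read 12.13 and 12.25 in wild type, with 12.46 and 12.72 in the deletion. It was above the floor throughout, and the deletion read higher than wild type by 0.33 at 1.5 h and by 0.47 at 3 h. The deletion at 1.5 h lay above wild type at 3 h by 0.21, within the spread.

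Counted at 2-fold with the higher array above the floor, 0 of the 8 factors differed between genotypes at 1.5 h, where 3.47% of the 2331 genes above the floor did. At 3 h only mei4 was counted, on the higher side, where 1.88% of 2337 genes were. The floor leaves 2 factors at 1.5 h and 4 at 3 h to be counted. Without it, mei4 was higher at 1.5 h, against 3.04% of all 2899 genes, and mei4, cuf2 and atf21 at 3 h, against 2.41%. With values under the dim level raised to it, mei4 at 1.5 h (0.82) and atf21 at 3 h (0.90) were under 2-fold. Among genes whose higher array lay below the floor at 3 h, as it did for cuf2 and atf21, 4.63% were higher by 2-fold.

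Counted against the spread between arrays, 4 of the 8 factors were higher in the deletion at 1.5 h and 1 lower, where 17.7% and 22.5% of all genes were. At 3 h 7 were higher and 0 lower, where 14.2% and 18.5% of all genes were, and 18.0% of the genes below the floor on all 4 arrays were higher. With dim values raised, 3 were higher at 1.5 h (mei4, cuf2 and rsv2, against 16.4% of all genes) and 6 at 3 h (all but fkh2 and atf31, against 13.7%). The median difference of the 8 factors was 0.24 at 1.5 h and 0.60 at 3 h, or 0.025 and 0.54 with dim values raised, against measured medians of -0.031 and -0.014 over all genes. The difference of differences was above its spread for 5 factors and below it for 0, where 8.11% and 7.93% of all genes were. With dim values raised it was above the spread for 4, namely sep1, cuf2, atf21 and rsv1, where 8.21% of all genes were, and atf31 was at 0. Raising dim values does not bound a difference of differences. It set the 1.5 h difference of atf21 and the wild-type change of cuf2 to 0. For these genes the count with dim values raised is therefore no check, and the size of the move is not settled.

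**Figure D2:**
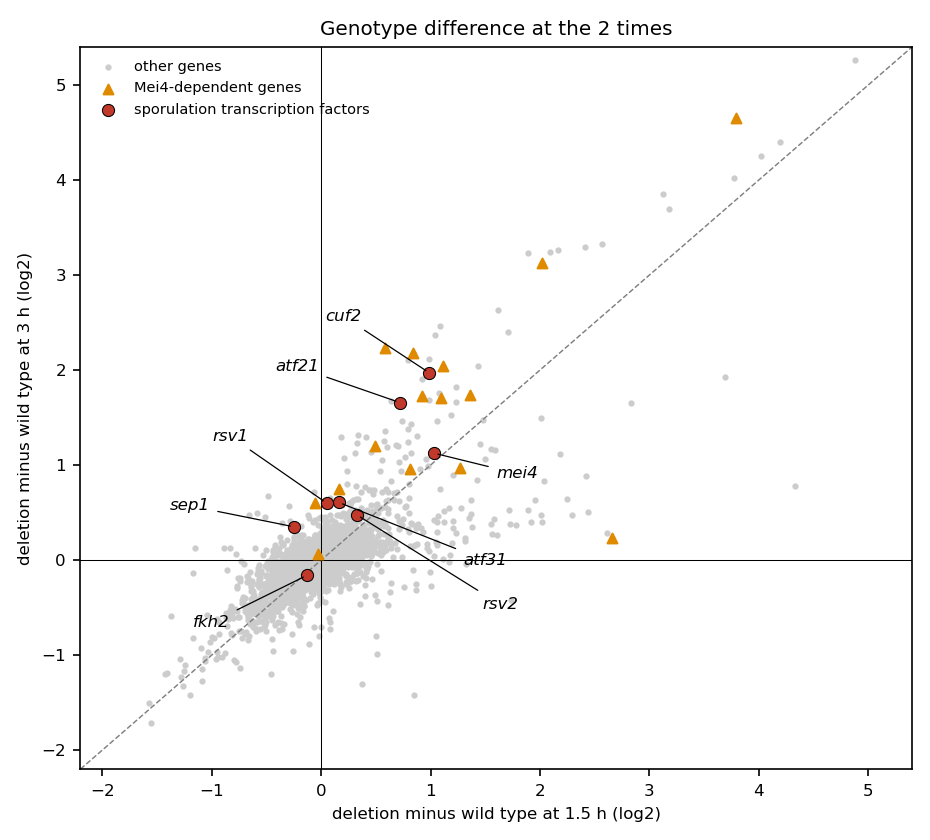
Deletion minus wild type in log2 units at 1.5 h (horizontal axis) and at 3 h (vertical axis). Grey points are single genes, triangles Mei4-dependent genes and labelled circles the 8 factors, and the dashed line marks equal differences. Values are as measured, without raising those under the dim level. The gene mei4 lies near the line at 1.03 and 1.12, cuf2 and atf21 lie above it, and fkh2 lies below 0 on both axes. The genes isp3 and pht1 fall outside the plotted range.

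A genotype difference shared by both times was estimated with an additive limma model of genotype and time. The model has no term for a genotype difference that changes with time, so a call does not mean equal differences at both times. Of the 2314 genes with 2 or more arrays over the floor, 2.12% were called. Only sep1 and rsv2 of the factors were among those tested, and 0 were called by limma. The rsv2 estimate was 0.40 ± 0.082 (SE), with the deletion higher at both times, and limma's adjusted p was 0.0911 (0.0085 before adjustment, the only one of these 2 factors under 0.05). The sep1 estimate was 0.052 ± 0.17 (SE), with opposite signs at the 2 times and limma's adjusted p of 0.869. In the same fit over all 2899 genes, where 3.66% were called, mei4 was called higher in the deletion by 1.08 ± 0.099 (SE) with limma's adjusted p of 0.0261, and the deletion was higher at both times. There cuf2 at 1.48 ± 0.26 (SE, adjusted p = 0.0623 by limma) and atf21 at 1.19 ± 0.25 (SE, adjusted p = 0.0785 by limma) were not called. These 3 estimates use the values under the dim level as measured, on 1 array for mei4, 2 for cuf2 and 3 for atf21. The fit has 1 residual degree of freedom, which takes in a genotype difference that changes with time, and its p-values reflect these 4 arrays and not repeated cultures.

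Over time in wild type, 0 factors differed by 2-fold with the floor, where 3.35% of genes did, and mei4 alone without it, on the higher side, where 2.9% of genes were, with at least 0.95 units from the dim level. In the deletion mei4 was 2-fold higher at 3 h with the floor, where 2.36% of genes were, and mei4 and atf21 without it, where 2.41% were, the latter with at least 0.90 units from the dim level. Beyond the spread, mei4 and rsv1 were higher at 3 h in wild type (16.1% of all genes) and sep1 lower (17.8%). In the deletion 6 were higher (15.3%) and 0 lower (12.7%), and with dim values raised 5 were higher, namely mei4, cuf2, atf21, rsv1 and rsv2 (14.8%). The median change of the 8 factors was 0.11 in wild type and 0.68 in the deletion, or 0.060 and 0.56 with dim values raised, against measured medians of -0.016 and -0.0015 over all genes.

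**Figure D3:**
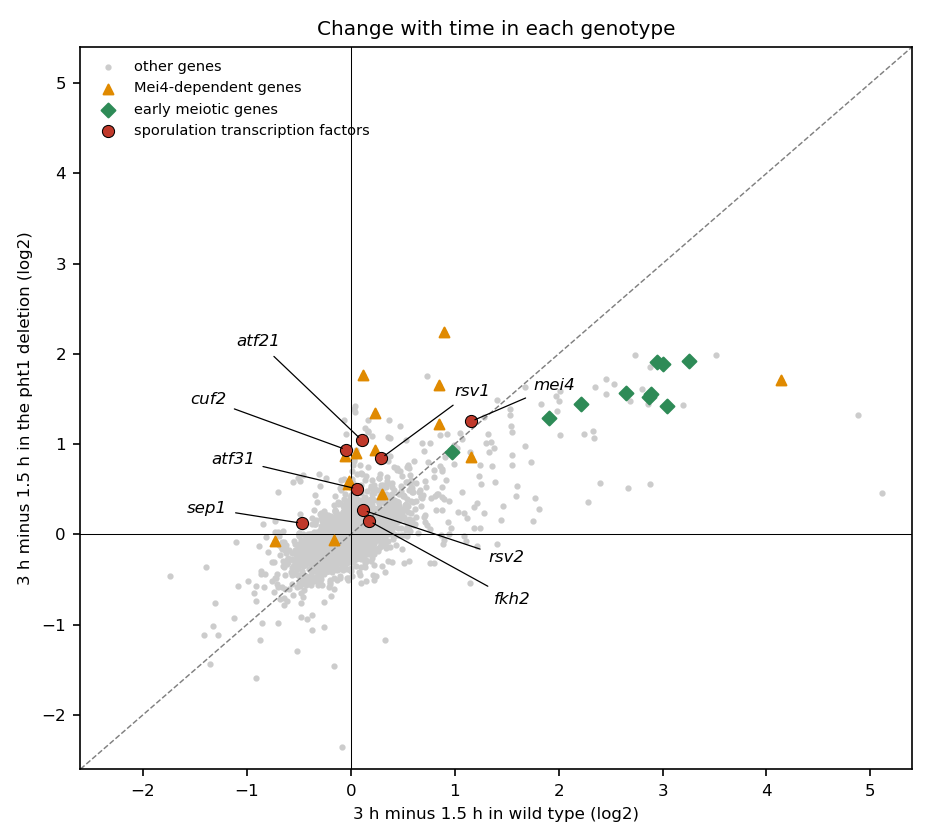
Value at 3 h minus value at 1.5 h in log2 units, in wild type (horizontal axis) and in the pht1 deletion (vertical axis). Grey points are single genes, triangles Mei4-dependent genes, diamonds early meiotic genes and labelled circles the 8 factors, and the dashed line marks equal change. Values are as measured. The early meiotic genes lie below the line, with a median change of 2.88 in wild type and 1.54 in the deletion, mei4 lies near it, and cuf2 and atf21 lie above it near 0 on the horizontal axis.

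Genes known to depend on Mei4 were taken from a list of 17 names, of which 15 genes were measured. They include genes named mde, for Mei4-dependent expression, with spn7 and spn5 matched through older mde names. The list is from general knowledge of the field and was compiled with earlier results of these arrays known. At 1.5 h 13 of the 15 read higher in the deletion by some amount, 12 beyond the spread (17.7% of all genes), and their median was 0.92. With dim values raised, 10 were beyond it (16.4% of all genes) and the median was 0.51. At 3 h all 15 read higher, 14 beyond the spread (14.2% of all genes), and their median was 1.70. With dim values raised, 13 were beyond it (13.7% of all genes) and the median was 1.20, and rem1, dim on all 4 arrays, was at 0. Of those whose higher array lay above the floor, 4 of 6 were at least 2-fold higher at 1.5 h, where 2.57% of genes were, and 7 of 10 at 3 h, where 1.88% were. At the dim level, 8 of the 15 read under it in wild type at 1.5 h, 5 at 3 h, and 1 in the deletion at each time.

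The amylase-like gene mde5 had the largest difference of the list at both times, with 7.70 and 7.75 in wild type, against 11.49 and 12.40 in the deletion. Both wild-type values lay under the dim level, so the difference was at least 3.12 at 1.5 h and at least 4.03 at 3 h. The gene spo6, for a regulatory subunit of a kinase of the meiotic divisions, read 7.44 and 7.68 in wild type, with 9.46 and 10.81 in the deletion, at least 1.09 and at least 2.43 apart. The gene mfr1, for a meiotic activator of the anaphase-promoting complex and known as a target of Cuf2, read 7.82 and 7.76 in wild type, against 8.93 and 9.80 in the deletion, at least 0.56 and 1.43 apart. These 3 genes were, like cuf2, under the dim level on both wild-type arrays and over it on both deletion arrays. So was mde7, for an RNA-binding protein, with 7.54 and 7.52 against 8.64 and 9.23, at least 0.27 and 0.85 apart.

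The septin gene spn5 read 8.30 and 8.41 in wild type, with 8.88 and 10.65 in the deletion, and its genotype difference was at least 0.51 at 1.5 h and 2.23 at 3 h. The gene mde2, needed for meiotic break formation, was under the dim level in wild type at 1.5 h, with differences of at least 0.043 and of 2.18. The kinase gene mde3 was under it there too, with at least 0.16 and with 1.73. As measured, the 1.5 h differences were 0.58 (spn5), 0.84 (mde2) and 0.92 (mde3), each smaller than that at 3 h. Because wild type was dim at 1.5 h in these 3, a wider difference at 3 h is not settled. The septin gene spn7 read 9.36 and 10.21 in wild type, against 10.72 and 11.95 in the deletion, a difference of 1.36 and 1.73. The gene mde10, for a metalloprotease of spore formation, read 11.22 and 12.38 in wild type, with 12.49 and 13.35 in the deletion, a difference of 1.27 and 0.97. For spn7 and mde10, as for mei4, both genotypes read higher at 3 h and the deletion read higher at both times. The same held for other genes of the list, such as mde2, mde3, mde6 and mes1.

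The gene mes1, for an inhibitor that allows the second division, had differences of 0.49 and 1.20, and mde6 had 0.81 and 0.95. The meiotic cyclin gene rem1 read under the dim level on all 4 arrays, between 7.41 and 8.16, so its differences are not settled. The phosphatase gene cdc25, which also serves mitosis, differed by -0.055 and 0.60, and the monopolin gene mde4 by -0.033 and 0.066. As measured, mde4 was the only gene of the 15 within the spread at 3 h, and with dim values raised rem1 was too. The cyclin gene crs1 ran differently from the rest, with 8.38 and 12.52 in wild type, against 11.04 and 12.75 in the deletion. Its wild-type change with time of 4.14 was the largest of the 15, and its genotype difference was 2.66 at 1.5 h and 0.23 at 3 h.

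**Figure D4:**
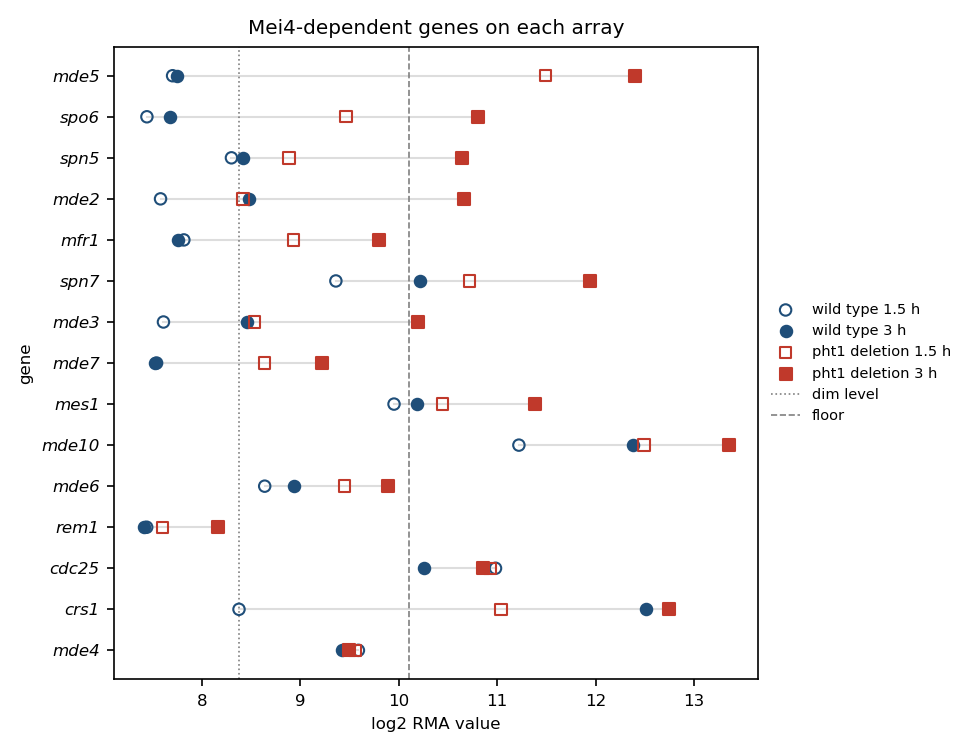
Log2 RMA values (horizontal axis) of the 15 measured Mei4-dependent genes (vertical axis, ordered by their genotype difference at 3 h), with 1 array per point. Circles are wild type and squares the deletion, open at 1.5 h and filled at 3 h, and the dotted and dashed lines are the dim level at 8.37 and the mean floor at 10.11. For mde5, spo6, mfr1 and mde7 both wild-type points lie left of the dim level and both deletion points right of it, while crs1 in wild type spans 8.38 to 12.52.

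In the additive fit over 2314 genes, where 2.12% were called, 6 of the 15 were tested and 3 called by limma, all higher in the deletion at both times. The count rests on the setting, with 2 of 6 called by limma without the variance trend, 0 of 3 with the floor at the array median and 6 of 15 over all genes (3.66%). They were mde5 at 4.22 ± 0.25 (SE, adjusted p = 0.018 by limma), spn7 at 1.55 ± 0.13 (SE, adjusted p = 0.0315 by limma) and mde10 at 1.12 ± 0.10 (SE, adjusted p = 0.0335 by limma), which had an adjusted p of 0.0559 by limma without the variance trend. The mde5 estimate uses its dim wild-type values as measured. The list's genotype difference moved upward from 1.5 h to 3 h by more than its spread in 11 genes (8.11% of all genes) and downward in crs1, by -2.43 (7.93% of all genes). With dim values raised it was upward in 10 (8.21% of all genes). Raising a dim wild-type value at 1.5 h can widen this move, for mde2 from 1.35 to 2.14. The count with dim values raised is therefore no cautious check. Over the 10 early meiotic genes the later minus the earlier genotype difference was negative in all 10, with a median of -1.10. The median was 0.65 for the Mei4-dependent genes and 0.02 for all genes. For mei4 itself the difference of differences was 0.094.

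Of 9 measured genes bearing on mei4 transcript levels, 6 were higher in the deletion beyond the spread at 1.5 h (17.7% of all genes). At 3 h 5 were (14.2%), and 1 was lower at each time (22.5% and 18.5%). With dim values raised, 5 were higher at each time (16.4% and 13.7%). The genes of the regulators that open the program differed by 0.99 and 0.10 (ste11) and by 0.64 and 0.13 (mei2). The kinase gene pat1, a brake on meiotic entry, read 11.58 and 12.77 in wild type, with 12.95 and 13.26 in the deletion, a difference of 1.37 and 0.49. The gene of Rep1, an activator of premeiotic transcription, had differences of 1.35 and 0.44, while that of its mitotic relative Rep2 had -0.49 and 0.68. The gene mei3, for the inhibitor of the Pat1 kinase, was at 7.69 and 9.01 in wild type, against 8.46 and 9.57 in the deletion, a difference of at least 0.089 from the dim level at 1.5 h, and of 0.56 at 3 h. For mmi1, whose product destroys mei4 mRNA in growing cells, the differences were -0.089 and -0.25, and for red1, which acts with it, 0.26 and 0.14. At 2-fold with the floor, 2 of 5 genes were higher at 1.5 h (2.57% of genes), and 0 of 5 at 3 h (1.88% of genes).

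Targets of Sep1 and Fkh2 in mitosis and cytokinesis had medians of -0.092 at 1.5 h and -0.14 at 3 h over 15 measured genes, with 5 and 7 lower beyond the spread and 2 and 1 higher, where 22.5% and 18.5% of all genes were lower and 17.7% and 14.2% higher. The gene mid1, for a protein that places the division site, read 11.35 and 10.88 in wild type, with 10.25 and 9.73 in the deletion, a difference of -1.09 and -1.15. The gene cdc15, for a scaffold of the contractile ring, differed by -0.44 and -0.95, and chs2, a gene named for chitin synthase, by 0.62 and 0.27. With time, 9 of the 15 read lower at 3 h beyond the spread in each genotype, where 17.8% of all genes did in wild type and 12.7% in the deletion, and the medians were -0.34 and -0.51. At 2-fold with the floor, mid1 was the only one of the list lower in the deletion at each time, where 0.901% and 0.856% of genes were.

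Of 10 measured genes listed as relatives, all but map1 and mbx1 share a protein family with a factor. In each genotype comparison 0 of 10 differed by 2-fold, against 3.47% of genes above the floor at 1.5 h and 2.74% at 3 h. At 1.5 h the largest differences listed were map1, the regulator of P-cell genes, at 0.88 and the copper factor gene cuf1 at -0.39. At 3 h they were those of the stress factor gene atf1 at 0.78 and the glucose repressor gene scr1 at 0.47. The gene cuf1 read 10.33 and 10.34 in wild type, against 9.93 and 10.13 in the deletion. The fourth forkhead gene, fhl1, was at -0.33 and -0.27, and mbx1, whose product works with Fkh2 and Sep1, at 0.12 and -0.13.

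Genes whose 4 values ran most like those of mei4 were found by the Euclidean distance between values centred on each gene's own mean, over 4 arrays and the same 2314 genes. The nearest was mde10, at 0.28 log2 units, followed by the hexose transporter gene ght3 (0.43), gal10 (0.45), mis4 (0.49) and spn7 (0.52). Nearest to cuf2 were mok14 (0.24), a gene of spore wall glucan synthesis, and mug109 (0.35), and nearest to atf21 were mes1 and bgs2, a gene of spore wall glucan synthesis (each 0.36). The genes nearest to the factors with small differences were clr1 and hba1 for fkh2 (0.028 and 0.033), rpp203 and mug113 for sep1 (0.091 and 0.12), exo1 and mug56 for atf31 (0.065 and 0.12), nuc2 and pso2 for rsv1 (0.19 and 0.20) and snd2 and gal1 for rsv2 (0.059 and 0.061). A flat pattern lies close to many other flat ones, so these distances are small, and with 4 arrays they are a description only. Those of mei4, cuf2, atf21 and atf31 take in measured values under the dim level, all 4 of them for atf31.

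Of the 16 protein-coding genes next to the factors in the RefSeq gene order, 9 were measured by a named probe set. The genes beside mei4 were cdk9 at -0.55 and -0.39 and act1 at -0.014 and -0.025 in the 2 genotype comparisons. The measured neighbour of cuf2, sup35, was at -0.095 and -0.010, and that of atf21, ceg1, at -0.21 and -0.25. Beside the other factors, nuc1 (by sep1) was at 0.18 and 0.25, and rps3 (by fkh2) at -0.036 and 0.014. The gene rdh54 (by atf31) was at -0.011 and -0.083, qcr10 (by rsv1) at -0.071 and -0.095, and htd2 (by rsv2) at -0.037 and -0.30. The medians over all genes were -0.031 and -0.014.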

How the data were processed

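Per the submitters' processing notes, the authors made the deposited log2 values with RMA, a method that subtracts background, brings the arrays to a shared distribution and combines the probes of each set. The RMA version is not given in the sources used here. The shared distribution removes differences in total mRNA. The table held 4999 probe sets on 4 arrays, of which 2917 had 1 gene symbol, 20 had more than 1 and the other 2062 had none in the annotation used. Of these 2917, 2914 matched a RefSeq gene table (ASM294v3) by gene identifier, used for names and neighbours only. For 14 genes with several sets, the brightest was taken.

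Differences are 1 array minus 1 array, with no p-value. The additive fit used limma 3.58.1 in R 4.3.3 with a variance trend and Benjamini-Hochberg adjustment at 0.05. It was also run on simulated data, and the outcome of that run is not given here. Other steps used matplotlib 3.10.9, statsmodels 0.14.6, pandas 2.3.3 and numpy 2.4.6 in Python 3.11.15. The number of arrays limits the precision.

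The factors, gene lists, tests and the dim level were chosen with earlier results of these data known. Named genes are all factors and Mei4-dependent genes, pht1, the 2 largest genotype differences of each other list, and the 5 genes most like mei4 and 2 most like each other factor. Some relatives, inputs and neighbours, and the marker gene mam2, were added after their values were seen. The alternatives tried changed scaling, floor, fold, probe sets, variance model and the dim level. Whether 1 culture of a genotype gave both samples is not stated in the labels. Sequences and genome positions were not used here.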

Additional observations from a re-analysis of the deposited data

Results flagged for a closer look

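The genotype difference of sep1 had opposite signs at the 2 times, each beyond the spread of 0.223 log2 units between arrays. It was -0.24 at 1.5 h and 0.35 at 3 h, so that the later minus the earlier difference was 0.59. With the intensity trend of each pair of arrays removed, the 1.5 h difference was -0.21, within the spread. At the main setting 22.5% of all genes were lower beyond the spread at 1.5 h and 14.2% higher at 3 h. The share of all genes with such opposite signs was not counted. With 1 array per group this difference of differences was not tested.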

How the results depend on the processing

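No paired analysis was possible because each group holds 1 array and the labels give no replicate numbers, and for the same reason no replicate could be left out. Under other scalings or probe set rules, 180 differences of the factors and medians of the Mei4-dependent genes were recomputed. Of these, 0 moved by more than the spread between arrays, and the largest shift was 0.13 log2 units. Each factor has 1 probe set, so the probe set rule could not move a factor. Subtracting array medians shifts all genes alike, by at most 0.034 units, so it could not exceed the spread. For the factors the check thus rests on quantile normalization and on removal of the intensity trend. The one sign change was that of the difference of differences of fkh2, from -0.031 to 0.0099 after quantile normalization. Raising values under the dim level to it, chosen after seeing the data, moved 9 of 45, among them cuf2 at 3 h, from 1.97 to 1.19, and the median of the Mei4-dependent genes, from 0.92 to 0.51 at 1.5 h and from 1.70 to 1.20 at 3 h. The counts of factors at 2-fold rest on the floor and the threshold. Without a floor the count was 1 in place of 0 at 1.5 h, 3 in place of 1 at 3 h, 1 in place of 0 for time in wild type and 2 in place of 1 for time in the deletion. With the floor at the array median it was 0 in place of 1 at 3 h and for time in the deletion, as it was at a 3-fold threshold, and at 1.5-fold it was 2 for both, with rsv1 added to mei4. Limma's additive fit called 1 factor, mei4, over all genes and 0 in the 4 other settings, where mei4 was not among the genes tested. Over all genes tested, limma called 49, and 31 without the variance trend, 106 over all genes, 1 with the floor at the array median and 166 after quantile normalization. In the counts over all genes, 1.5-fold gave 218 and 151 between genotypes at 1.5 h and 3 h and 180 and 137 over time in wild type and the deletion, in place of 81, 64, 78 and 66. With 3-fold they were 33, 27, 39 and 18. With the floor at the array median they were 49, 40, 54 and 40. Of the 8 factors, 6 lay below the floor on at least 3 arrays. Signal near that of an absent transcript limits mei4, cuf2, atf21 and atf31, which read under the dim level on 1 or more arrays. The values of fkh2 and rsv1 lay above the dim level on all 4 arrays.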

Other observations

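Genes of spore formation in late meiosis, 14 of 14 measured, had median genotype differences of 0.81 at 1.5 h and 0.96 at 3 h. At 2-fold with the floor, 3 of 12 were higher at 1.5 h, where 2.57% of genes were, and 7 of 13 at 3 h, where 1.88% were. The spore wall gene isp3 differed by at least 5.68 (from the dim level) and 1.41 and the RNA-binding protein gene spo5 by 4.33 and 0.78, narrower at 3 h. The gene crp79 (meu5), for an RNA-binding protein, read under the dim level in wild type and differed by at least 0.71 and at least 2.46, and the glucanase gene agn2 differed by 0.99 and 2.12. Over the list, the later minus the earlier difference was positive in 7 genes and negative in 7.

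Genes of cAMP signalling and glucose repression, a pathway known to hold down rsv1, had medians of 0.053 and 0.11 over 10 measured genes, and 0 differed by 2-fold between genotypes, where 3.47% and 2.74% of genes above the floor did. The fructose bisphosphatase gene fbp1 was at 0.50 and 0.58, and the glucose receptor gene git3 at 0.45 and 0.20. With time fbp1 differed by 1.05 in wild type and 1.13 in the deletion.

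Markers of the 2 mating types were present on all 4 arrays, as an h+/h- diploid carries both. The lists as compiled placed map3, the M-factor receptor gene of P cells, with the M-cell genes. They placed mam2, the P-factor receptor gene of M cells, with the P-cell genes. Of the P-cell list so compiled 3 of 6 were measured, and of the M-cell list 5 of 7. Of P-cell genes, map2 differed by 2.42 and 0.89, map1 by 0.88 and 0.37 and map3 by 2.83 and 1.66. Of M-cell genes, mfm3 differed by 1.56 at 1.5 h, mam1 by -0.34 at 3 h and mam2 by 0.84 and -0.10. None of these measured markers read under the dim level on any array. For the P-cell list as compiled, with mam2 in it, the log2 of the summed linear values is given at 1.5 h and 3 h. It was 13.83 and 15.05 on the wild-type arrays and 15.30 and 15.47 on the deletion arrays. For the M-cell list as compiled, with map3 in it, it was 15.35 and 16.19, and 16.15 and 16.27, in the same order. Each sum mixes genes of both mating types, so these sums do not compare P-cell with M-cell transcripts. The part of these markers in the differences of the factors was not tested. The vegetative growth genes, 4 of 6 measured, differed by at most 0.19 in size, with pma1 at -0.10 and -0.19 and adh1 at -0.068 and -0.096. Among the nitrogen starvation genes, ste11 was at 0.99 and 0.10, isp5 at -0.72 and -0.43 and fnx1 at -0.32 at 3 h. In the early meiotic list, hop1 was at 2.02 at 1.5 h, meu13 at 1.96 and 0.63, and mug20 at 0.55 at 3 h.

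Set beside wild type at 3 h, the deletion at 1.5 h read -0.13 for mei4, -0.31 for fkh2, 0.23 for sep1, 1.03 for cuf2, 0.61 for atf21, 0.10 for atf31, -0.25 for rsv1 and 0.21 for rsv2. This comparison uses the same arrays as the others, and the wild-type values of cuf2, atf21 and atf31 lie under the dim level.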
